A study of Mus musculus with 2 samples.

Results

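The miR-302/miR-367 cluster is a group of 5 microRNA hairpins, Mir302b, Mir302c, Mir302a, Mir302d and Mir367, that lie next to each other in a stretch of 580 bases of mouse chromosome 3. They were taken by symbol from the 1973 microRNA genes of the deposited tables. The tissue was the midbrain of newborn mice of the strain B6NCrl on postnatal day 0, with no treatment named in the labels. There was 1 group of 2 libraries, 1 from pup 1 and 1 from pup 3, each made from the total RNA of a single midbrain and limited to RNA under 30 bases. The labels name separate pups but repeat 1 donor identifier and give no sex, so the SD over n = 2 is taken as that of 2 animals on the strength of the pup names alone. The series holds no other age, tissue or cell type, so the questions are which hairpins of the cluster were counted in the newborn midbrain, how their levels differed along the cluster, and how closely the pups matched.

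MicroRNAs are short RNAs cut from hairpin precursors, and each arm of a hairpin can give a mature microRNA that represses messenger RNAs through pairing with its seed, bases 2 to 8 counted from its 5′ end. The miR-302/miR-367 hairpins are cut from a shared primary transcript that is driven in pluripotent cells by factors such as Oct4, Sox2 and Nanog. The cluster is known as a marker of embryonic stem cells and of the early embryo, where the miR-302 microRNAs speed entry into S phase by repressing inhibitors of the cell cycle, and it is known to fall as cells differentiate while the let-7 family rises.

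All 5 hairpins and 9 of their mature microRNAs were matched in a RefSeq table of sequences on GRCm38.p6, which held 1005 hairpins and 1738 mature entries. The hairpins are shown in their order along the cluster because the 4 miR-302 hairpins carry the same 16 bases in their 3′ arm, printed in capitals, and Mir367 does not. In Mir367 the capitals mark the seed of its 3′ arm. The run AAGUGCUUCCAUGUUU, searched on the hairpins' own strand, was in 4 of the 1005 hairpins, all of them members.
Mir302b hairpin: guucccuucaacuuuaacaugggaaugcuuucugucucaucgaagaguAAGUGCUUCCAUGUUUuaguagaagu
Mir302c hairpin: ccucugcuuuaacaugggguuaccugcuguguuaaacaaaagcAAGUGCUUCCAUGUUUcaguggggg
Mir302a hairpin: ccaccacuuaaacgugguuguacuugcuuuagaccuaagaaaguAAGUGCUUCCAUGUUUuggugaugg
Mir302d hairpin: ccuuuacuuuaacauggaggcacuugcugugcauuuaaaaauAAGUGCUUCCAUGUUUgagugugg
Mir367 hairpin: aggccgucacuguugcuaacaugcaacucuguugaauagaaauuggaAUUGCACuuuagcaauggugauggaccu

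The mature 3′ arms fall into groups by seed, shown in capitals. Mature miR-302b-3p and miR-302d-3p share a seed with 3 microRNAs of the Mir290 to Mir295 cluster, the other large cluster of mouse embryonic stem cells. Mature miR-302c-3p is annotated from 1 base further in, so that its bases 2 to 8 are shifted and match no other mature entry. The seed of miR-367-3p is that of the miR-25/92 family and of 6 hairpins outside the cluster. The entry for miR-302a-3p was not used here.
miR-302b-3p: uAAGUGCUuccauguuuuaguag
miR-302d-3p: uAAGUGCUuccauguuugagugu
miR-302c-3p: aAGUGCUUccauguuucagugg
miR-294-3p: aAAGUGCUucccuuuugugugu
miR-291a-3p: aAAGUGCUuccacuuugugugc
miR-295-3p: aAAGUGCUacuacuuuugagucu
miR-367-3p: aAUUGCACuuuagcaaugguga
miR-92b-3p: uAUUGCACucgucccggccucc
miR-363-3p: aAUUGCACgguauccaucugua

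The cluster lies on the plus strand of GRCm38, the assembly also called mm10, from 127545228 to 127545807 on chromosome 3. Mir302b (ENSMUSG00000076252.1) runs from 127545228 to 127545301, Mir302c (ENSMUSG00000065482.1) from 127545363 to 127545430 and Mir302a (ENSMUSG00000065552.1) from 127545496 to 127545564. Mir302d (ENSMUSG00000065447.1) runs from 127545624 to 127545689 and Mir367 (ENSMUSG00000065413.2) from 127545733 to 127545807. The gaps between neighbours are 61, 65, 59 and 43 bases. In the GENCODE M21 annotation the whole cluster is antisense to Larp7, a gene for an RNA-binding protein of the 7SK complex, in intron 8 of its transcript of 13 exons, and no Larp7 exon overlaps it. Mir367 ends 18 bases from the nearest Larp7 exon.

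Own-strand counts on genes came to 2337113 (pup 1) and 3195277 (pup 3). CPM stands here for the own-strand counts of a hairpin per 1000000 of these, so that 1 count was worth 0.428 CPM (pup 1) and 0.313 CPM (pup 3). The labelled tissue was read against neuronal microRNAs, whose 11 counted hairpins summed to 46704 ± 3537 CPM (SD, n = 2), led by Mir137 at 24297 CPM, Mir153 at 9302 CPM and Mir128-1 at 7698 CPM, with none at 0 in both pups. A read with more than 1 mapping place enters no gene, and such reads were 38.7% (pup 1) and 39.8% (pup 3) of each file, so hairpins with near-identical copies, among them Mir9-2 at 1.05 CPM and the Mir124a hairpins at 2.17 to 11.6 CPM, are undercounted to an unknown degree.

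The miR-302 hairpins were counted in the newborn midbrain of both pups, and Mir367 was not. The cluster had 655 counts in pup 1 and 985 in pup 3, or 280 CPM (exact Poisson 95% interval 259 to 303) and 308 CPM (289 to 328). The mean was 294 ± 19.8 CPM (SD, n = 2), which is 0.0294% of the counted reads. Of the 5 members 4 had 10 or more counts in both libraries and were called detected, a minimum that 18.2% of all 1973 genes reached. At least 1 count in both was found for the same 4 members and for 28.3% of all genes, while 64.7% of all genes had 0 counts in both libraries. No member had a count on its opposite strand.

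Mir302d, the fourth hairpin, was the highest of the cluster, with 245 counts in pup 1 and 351 in pup 3. These are 105 CPM (95% interval 92.1 to 119) and 110 CPM (98.7 to 122), a mean of 107 ± 3.55 CPM (SD, n = 2). Both pups gave nearly the same value, and the counting intervals overlapped.

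Mir302a, the third hairpin, had 225 counts in pup 1 and 323 in pup 3. Its level was 96.3 CPM (95% interval 84.1 to 109.7) and 101.1 CPM (90.4 to 113), a mean of 98.7 ± 3.40 CPM (SD, n = 2). Mir302a stood just below Mir302d in each pup, with overlapping intervals.

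Mir302b, the first hairpin, had 162 counts in pup 1 and 271 in pup 3. Its level was 69.3 CPM (95% interval 59.1 to 80.9) in pup 1 and 84.8 CPM (75.0 to 95.5) in pup 3, a mean of 77.1 ± 11.0 CPM (SD, n = 2). It was the third in level in each pup and had the widest spread between pups in CPM of the 5 hairpins.

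Mir302c, the second hairpin, was far lower than the miR-302 hairpins on both sides of it, with 23 counts in pup 1 and 40 in pup 3. Its level was 9.84 CPM (95% interval 6.24 to 14.8) and 12.5 CPM (8.94 to 17.05), a mean of 11.2 ± 1.89 CPM (SD, n = 2). Its interval lay below those of Mir302b, Mir302a and Mir302d in each pup.

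Mir367, the last hairpin and the only member without the 16 shared bases, had 0 counts in both pups. A count of 0 allows up to 3 counts, which is 1.28 CPM (pup 1) and 0.939 CPM (pup 3). Its mature sequences are not copies of another annotated transcript: of the 141767 transcripts of GENCODE M21, each of miR-367-5p and miR-367-3p was in 1, its own hairpin, and their reverse complements in 0. The longest run that the Mir367 hairpin shares with another hairpin of the table was 11 bases. A search of the whole genome for copies was not made.

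**Figure D1:**
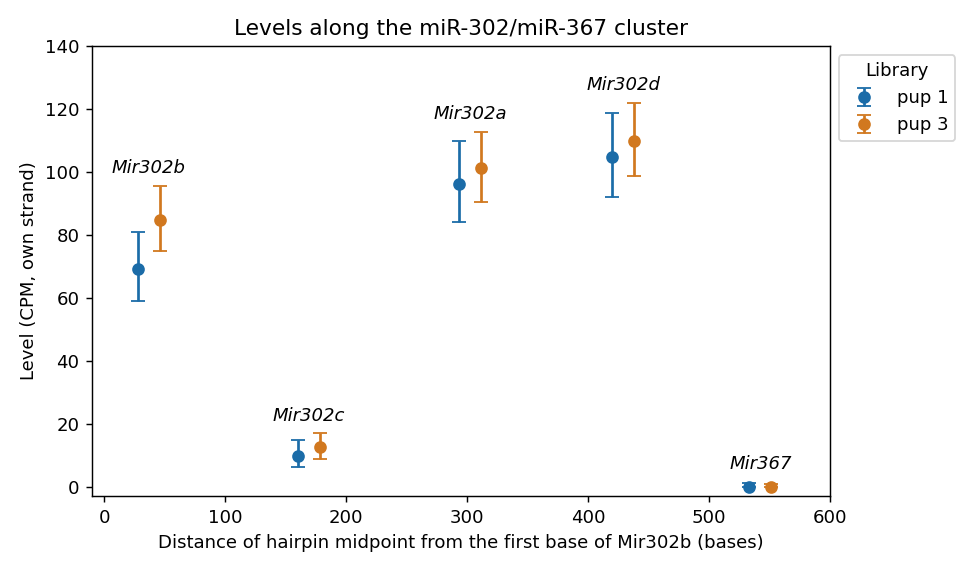
Level in CPM (own strand) of each hairpin against the distance of its midpoint from the first base of Mir302b, in bases; points are the 2 pups and bars exact Poisson 95% intervals, or for Mir367 the limit of 3 counts, which cover counting error only. Mir302b, Mir302a and Mir302d lie between 69.3 and 110 CPM, Mir302c at 9.84 and 12.5 CPM, and Mir367 at 0 in both pups.

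The levels thus did not fall or rise steadily along the cluster, and their order was the same in both pups: Mir302d, Mir302a, Mir302b, Mir302c and Mir367. The hairpins are 66 to 75 bases long, and they were compared per base of hairpin with a two-sided exact binomial test on the counts of both pups together, Benjamini-Hochberg adjusted over the 10 pairs. This test compares hairpins within these libraries and covers counting error only. The libraries hold RNA under 30 bases, shorter than the hairpins, so counts need not scale with hairpin length. Per base, Mir302d was 9.75-fold above Mir302c (95% interval 7.51 to 12.8, exact binomial adjusted p = 6.93e-113) and Mir302a 8.57-fold above it (6.60 to 11.3, exact binomial adjusted p = 8.40e-96). Mir302b was 6.32-fold above Mir302c (4.84 to 8.36, exact binomial adjusted p = 2.62e-62).

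Among the 3 high hairpins the differences were small. Per base, Mir302d was 1.54-fold above Mir302b (95% interval 1.36 to 1.75, exact binomial adjusted p = 6.70e-12) and Mir302a 1.36-fold above Mir302b (1.19 to 1.54, exact binomial adjusted p = 2.08e-06), higher in both pups. Mir302d was 1.14-fold above Mir302a (1.01 to 1.28, exact binomial adjusted p = 0.0308). That last call was lost in pup 3 alone (adjusted p = 0.106) and in pup 1 alone (adjusted p = 0.166), where the log2 ratio of Mir302a over Mir302d was -0.18 and -0.19, against -0.19 over both pups. It was also lost when hairpin length was left out (log2 ratio -0.12, adjusted p = 0.165), so the order of these neighbours was not settled by the counts. With length left out, the log2 ratio of Mir302b was -0.46 over Mir302d and -0.34 over Mir302a, against -0.63 and -0.44 per base.

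Against Mir367 every miR-302 hairpin gives a lower bound only. With the limit of 3 counts per library in place of its 0, Mir302d was at least 92.8-fold higher per base in pup 1 and at least 133-fold in pup 3, bounds that leave out the counting error of Mir302d itself. Without hairpin length these bounds were 81.7-fold in pup 1 and 117-fold in pup 3. With the counting error of both hairpins included over both pups, the lower end of the exact binomial 95% interval of the ratio per base was 183-fold for Mir302d over Mir367 and 18.3-fold for Mir302c, the lowest counted member, over Mir367.

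As shares of the cluster's own counts, Mir302d made up 36.5% ± 1.25, Mir302a 33.6% ± 1.10, Mir302b 26.1% ± 1.97 and Mir302c 3.79% ± 0.389 (SD, n = 2). The share of Mir302b was 24.7% in pup 1 (exact Clopper-Pearson 95% interval 21.5 to 28.2) and 27.5% in pup 3 (24.7 to 30.4), and the share of Mir302c was 3.51% (2.24 to 5.22) and 4.06% (2.92 to 5.49). The intervals of every member's share overlapped between the pups, and a difference in make-up was not tested.

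**Figure D2:**
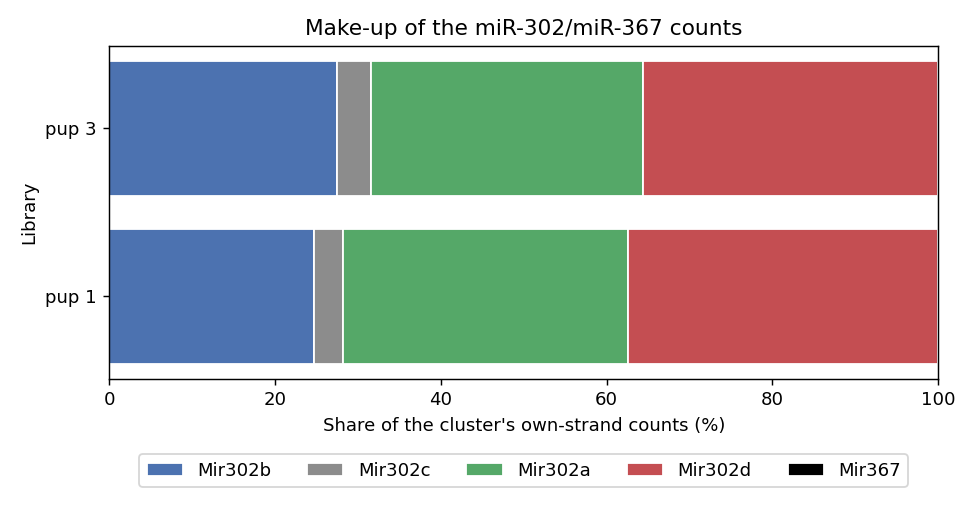
Share of the cluster's own-strand counts held by each hairpin in %, 1 bar per pup, in the order of the cluster; Mir367 has a share of 0 and no visible segment. Mir302d holds 37.4% in pup 1 and 35.6% in pup 3, and Mir302c 3.51% and 4.06%.

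Sequence bears on how the miR-302 hairpins can be told apart. Mir302a and Mir302b share an exact run of 20 bases that includes the 16 shared bases. Of the mature sequence of miR-302b-3p, 18 bases recur in Mir302a, 17 in Mir302d and 16 in Mir302c. A read that lies wholly within such a run has more than 1 mapping place and enters no gene, so the levels of the 4 miR-302 hairpins are uncertain to that extent and how much was lost was not tested. Each of the 7 matched miR-302 mature sequences was whole in only 1 of the 141767 transcripts, and the longest run with a hairpin outside the cluster was 13 bases. In GC content the 5 hairpins ranged from 39.2% for Mir302b to 47.1% for Mir302c, below the median of 51.0% over 1894 hairpins. By predicted folding energy per 100 bases (RNAfold), Mir367 at -46.0 kcal/mol and Mir302a at -45.9 kcal/mol were the most stable and Mir302b at -31.5 kcal/mol the least. The median was -37.9 kcal/mol over the 1894 hairpins and -43.4 kcal/mol over the 359 detected ones. A link between folding energy and level was not tested.

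No counted member passed the test between pups. The log2 ratio of pup 3 to pup 1 (CPM with a prior count of 0.5) was 0.07 for Mir302d, 0.07 for Mir302a, 0.29 for Mir302b and 0.33 for Mir302c. A two-sided exact binomial test was run on all 697 genes with a count in either pup, with Benjamini-Hochberg adjustment, and it compares 2 libraries with no replicate check. None of the 4 counted members was called, at an adjusted p under 0.05 and at least 2-fold, a call that 1.43% of the 697 genes had, and none had an adjusted p under 0.05 at any fold, as 22.2% of the 697 genes did. The lowest adjusted p was that of Mir302b at 0.173 (exact binomial, unadjusted p = 0.0460), the only member with an unadjusted p under 0.05, for a ratio of 1.22-fold (95% counting interval 1.00 to 1.496-fold). The ratios were 1.05-fold for Mir302d (0.888 to 1.24), 1.05-fold for Mir302a (0.883 to 1.25) and 1.27-fold for Mir302c (0.743 to 2.23), so a difference of 2-fold lay outside the intervals of all but Mir302c. The test does not show that the pups had equal levels. For the 286 genes whose counts averaged 50 or more over the pups, the median absolute log2 ratio was 0.17.

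**Figure D3:**
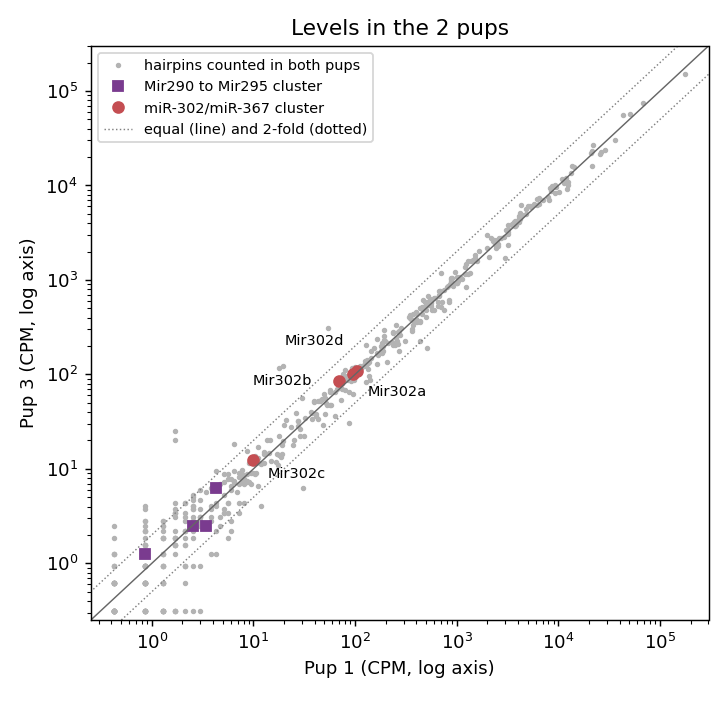
CPM in pup 3 against pup 1 on log axes, 1 point per hairpin counted in both pups; the line marks equal levels and the dotted lines a 2-fold difference. The 4 miR-302 hairpins lie inside the dotted lines, between 9.84 and 110 CPM, above the hairpins of the Mir290 to Mir295 cluster.

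Of all 1973 genes Mir302d ranked 219 by mean CPM, Mir302a 223, Mir302b 236 and Mir302c 310. Among the 359 detected genes alone the 4 members lay below the median of 225 CPM. The hairpins closest to Mir302d in level, by the summed absolute difference of log2(CPM + 1) over the 2 libraries, were Mir3072 (distance 0.16, 111 and 116 CPM), Mir7689 (0.16, 95.0 and 108 CPM) and Mir362 (0.18, 100.1 and 119 CPM). With 2 libraries this likeness is one of level only.

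The miR-302 hairpins were counted at higher levels than the other embryonic stem cell cluster. The 7 hairpins of the Mir290 to Mir295 cluster summed to 11.6 CPM (pup 1) and 13.1 CPM (pup 3), and 1 of the 7 was detected. The miR-302/miR-367 counts outnumbered them 24.3-fold in pup 1 (95% counting interval 16.5 to 37.1) and 23.5-fold in pup 3 (17.2 to 32.7). The loss of reads with more than 1 mapping place was not compared between these clusters, so this ratio is uncertain to that extent. Mir294 had 10 and 20 counts, Mir293 had 8 in each pup and Mir292 had 6 and 8. Mir291a had 2 and 4 counts, Mir295 had 0 and 2, Mir291b had 1 and 0, and Mir290a had 0 in both pups. Among the hairpins whose matched mature entries have the seed of miR-302b-3p, Mir302b and Mir302d summed to 174 CPM (pup 1) and 195 CPM (pup 3), and Mir291a, Mir294 and Mir295 to 5.13 and 8.14 CPM. Mir302a, whose hairpin holds the same 16 bases, is in neither sum because its 3′ entry was not used. The counts do not separate the 5′ from the 3′ arm of a hairpin, so these are levels of hairpins that can give the seed.

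Hairpins at other loci that can give the seed of miR-367-3p were counted. Here too the counts do not separate the arms of a hairpin, so the level of the seed itself was not measured. The 6 hairpins outside the cluster that carry this seed, all detected, summed to 4574 CPM (pup 1) and 3577 CPM (pup 3), against 0 from Mir367. Mir92b led with 2760 ± 616 CPM (SD, n = 2). Mir92-1 of the miR-17-92 cluster followed at 610 ± 122 CPM, then Mir25 at 274 ± 9.85 CPM, Mir363 at 213 ± 3.31 CPM, Mir32 at 199.7 ± 19.8 CPM and Mir92-2 at 18.5 ± 1.00 CPM. Mir92-1 and Mir92-2 both give miR-92a-3p, so reads of it that map to both are counted in neither and their levels are uncertain.

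The miR-17 family, microRNAs of dividing progenitors whose seed contains the same AAGUGC shifted by 1 base, summed to 19077 CPM (pup 1) and 21900 CPM (pup 3), or 68.1-fold and 71.0-fold the cluster. All 6 of its hairpins were detected, with Mir17 at 8870 ± 894 CPM, Mir106b at 4629 ± 659 CPM, Mir93 at 3693 ± 226 CPM and Mir20a at 3196 ± 216 CPM. Mir20b at 50.8 ± 5.22 CPM and Mir106a at 49.8 ± 4.02 CPM stood below Mir302b, Mir302a and Mir302d.

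The let-7 family, which accumulates as cells differentiate, summed to 123280 CPM (pup 1) and 124948 CPM (pup 3) over 10 detected hairpins, or 440-fold and 405-fold the cluster. It was led by Mirlet7g at 71710 ± 5418 CPM, Mirlet7i at 26452 ± 3732 CPM and Mirlet7d at 9587 ± 161 CPM (SD, n = 2). Several let-7 hairpins give the same mature sequence, so this sum is uncertain.

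**Figure D4:**
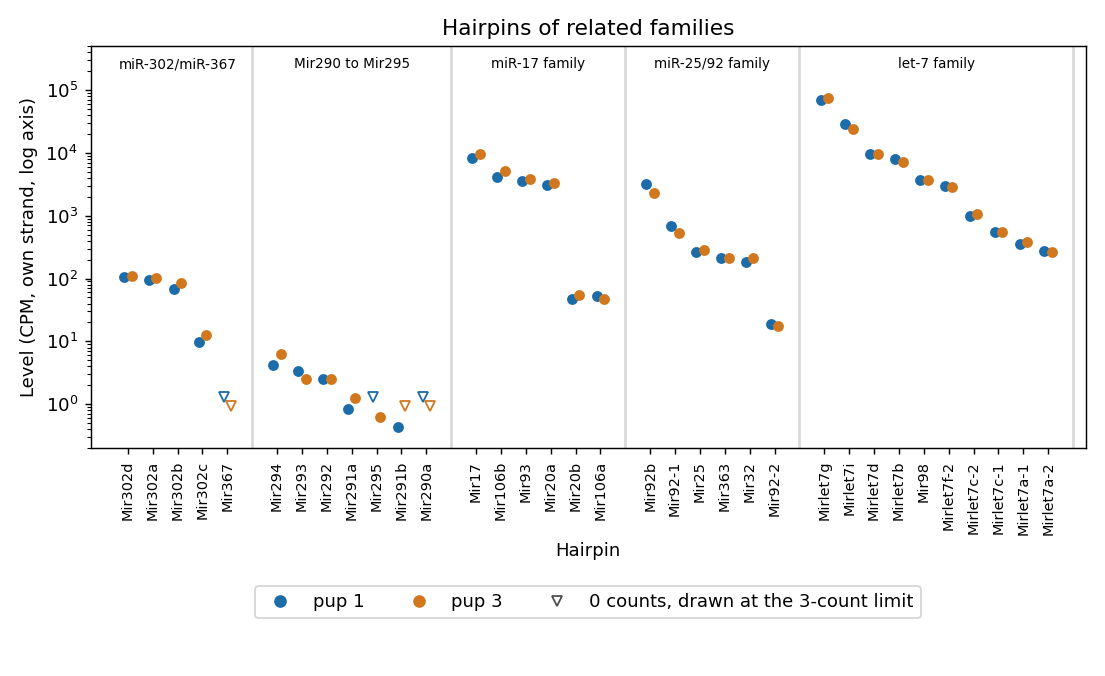
CPM on a log axis of each hairpin of 5 groups, ordered by level within a group; points are the 2 pups, and open triangles mark 0 counts, drawn at the limit of 3 counts. The 4 counted miR-302 hairpins lie above all 7 hairpins of the Mir290 to Mir295 cluster, and the let-7 hairpins reach 71710 CPM on average.

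Hairpins typical of vessel, choroid plexus, blood, liver and muscle cells were also read from the table. Endothelial and mural hairpins summed to 40310 ± 4372 CPM (3 of 3 detected), led by Mir126a at 33142 CPM, Mir143 and Mir145a. Choroid plexus and ciliated cell hairpins summed to 4126 ± 259 CPM (5 of 7 detected), led by Mir449a at 1842 CPM, Mir204 and Mir34c. Red cell and leukocyte hairpins summed to 488 ± 64.5 CPM (4 of 4 detected), led by Mir150 at 237 CPM, Mir223 and Mir451a, and liver and muscle hairpins to 73.1 ± 7.35 CPM (2 of 4 detected), led by Mir122 at 53.3 CPM and Mir206, with Mir1a-1 at 0. The summed miR-302/miR-367 level thus lay between the last 2 lists. In a bulk library few cells with much of a microRNA and many cells with little cannot be told apart, and which cells gave the miR-302 counts was not tested.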

How the data were processed

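MicroRNA sequencing was analysed from 2 libraries of the newborn mouse midbrain, pup 1 and pup 3. The deposited files hold raw read counts for each gene on either, the own and the opposite strand. Per the deposited descriptions they come from alignments to mm10 with the GENCODE M4 annotation, with aligner and counter names not given in the sources used here. Rows that name no gene (4 per file: unmapped, multi-mapped, outside genes, ambiguous) held 57.2% (pup 1) and 56.7% (pup 3) of all reads. They stayed out of totals and tests. Symbols came from GENCODE M21 by gene ID (1894 of 1973 matched), and sequences from RefSeq.

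The members and lists were chosen with earlier results of these data known. The text names all members, the hairpins of the seed and family lists, up to 3 leading hairpins of each other list, and the 3 hairpins nearest to the highest member in level.

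From the counts, CPM, exact Poisson intervals, exact Clopper-Pearson intervals and exact binomial tests were computed (scipy 1.17.1), with Benjamini-Hochberg adjustment. Intervals and limits cover the counting error of reads only, and no spread between animals or libraries. No molecular identifiers were used, so reads that copy the same molecule were not told apart. On simulated libraries of 650 tested genes, which held counting error only, 97.0% of 2-fold changes had an adjusted p under 0.05. These were genes averaging 50 or more counts, which leaves out Mir302c. The 2-fold minimum of a call was not applied there, so the share of such changes that would be called was not tested. Alternatives used TMM (edgeR 4.0.16) and DESeq2 1.42.0 scaling, other totals, filters, prior counts and strands, and each pup alone. Folding energies came from RNAfold 2.7.2.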

Additional observations from a re-analysis of the deposited data

How the results depend on the processing

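Among 4 of the 5 hairpins the direction between pups and the side of the threshold were the same under every alternative in which they were tested, and 4 of 5 members were detected throughout, pup 1 alone and pup 3 alone included. The list hairpins detected numbered 45 of 58. A minimum of 1 count per library gave 53, a minimum of 5 gave 49, and either pup alone gave 45 to 46. The summed cluster level moved with its total: it was 127 CPM when all reads in the files made up the total and 351 CPM without the most abundant gene, Mir99a, and it was 280 to 308 CPM in 1 pup alone. Between pups 10 genes were called. The count was 5 among the 286 genes averaging 50 or more counts, which leaves out Mir302c, and 155 with no fold minimum, and no member was called in any of these. Of the 10 pairs of members, all 10 differed per base of hairpin, and 9 did in 1 pup alone or with equal counts as the null, the lost pair each time being Mir302a and Mir302d. In the Mir290 to Mir295 cluster 1 of 7 hairpins was detected, but 3 with at least 5 and 4 with at least 1 count in each library. No paired analysis was possible because the series has 1 group. At this depth the interval between pups did not exclude a 2-fold difference for Mir302c, and a level of Mir367 under the limit of 3 counts was not detectable.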

Other observations

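Uneven levels within a cluster of hairpins were also seen outside the miR-302/miR-367 cluster. This comparison was chosen after the data were seen, and it joins annotated hairpins on 1 strand with gaps of at most 10000 bases. Of the 15 clusters with at least 4 hairpins, 10 had a leading hairpin of at least 50 CPM, and 5 of these 10, the miR-302/miR-367 cluster included, held at least 1 hairpin with 0 counts in both pups. Of the 7 with at most 10 hairpins, 2 did, the miR-302/miR-367 cluster and the cluster led by Mir370, whose lowest member Gm23912 had 0 counts. The 5 clusters with a 0 also include those led by Mir127, Mir487b and Mir467e. Their hairpins at 0 were 1 of 13, 3 of 34 and 85 of 107. Over all 1973 genes 64.7% had 0 counts in both libraries, and a larger cluster can more easily hold such a hairpin. Multi-mapped reads enter no gene, so these zeros are uncertain too.

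The other 5 clusters led by at least 50 CPM had no hairpin at 0 in both pups, and they spanned 14.6-fold to 2165-fold from the highest to the lowest hairpin. In the cluster led by Mir17 the highest hairpin, at 8870 CPM, stood 938-fold above Mir19b-1 at 9.46 CPM, and in that led by Mir363 the highest stood 77.1-fold above Mir19b-2 at 2.77 CPM. In the cluster led by Mir322 the range was 2165-fold, down to Mir450-1 at 3.06 CPM, and in that led by Mir532 it was 14.6-fold, down to Mir362 at 109 CPM. In the cluster led by Mir1264 it was 371-fold, down to Gm22650 at 0.370 CPM, a level near that of 1 count. Some of the low hairpins, such as Mir19b-1 and Mir19b-2, give the same mature microRNA from more than 1 locus, and a read with more than 1 mapping place enters no gene, so these ranges are uncertain.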
